A study of Mus musculus with 6 samples.

Results

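A set of 10 genes of the transforming growth factor beta (TGF-beta) pathway were followed in CD11b+Gr-1+ cells from mouse liver. They were the ligand gene Tgfb1, the receptor genes Tgfbr1 and Tgfbr2, the SMAD genes Smad1, Smad2, Smad3, Smad4, Smad5 and Smad7, and the corepressor gene Tgif1. The genes were chosen by name, and the row for each was selected on the highest mean level over the 6 arrays among rows whose annotation names that 1 symbol. All 10 members were found among 19938 genes, and each had 1 row, so the level decided nothing. The group of genes was put together with earlier results of these arrays known, so the members' values and calls below describe these arrays and support nothing further.

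The cells came from C57BL/6 mice in which tumours of EL4, a transplantable mouse lymphoma line, had been grown. The labels call them hepatic myeloid-derived suppressor cells, a name for immature cells of the granulocyte and monocyte lines that dampen T cell responses. Con A (type IV concanavalin A), a lectin from jack beans that stimulates T cells and injures the liver, was given to 1 group of 3 mice and PBS to the other, and cells were taken 3 hours later. For the dose of Con A the design text has 12.5 mg/kg, whereas the treatment field has 12.5 ug/kg. All mice of both groups carried tumours, so no tumour-free mice enter the comparison, and neither the mice's age and sex nor whether an array holds 1 mouse is given in the sources used here. The p-values therefore measure the spread between arrays, which may be technical. Values are log2 expression on 6 arrays, 3 per group, and differences are Con A minus PBS.

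TGF-beta is made as a latent protein that must be released before it acts. The active ligand joins the receptors encoded by Tgfbr2 and Tgfbr1, and TGFBR1 then phosphorylates SMAD2 and SMAD3, which enter the nucleus with SMAD4. Bone morphogenetic proteins (BMPs) use related receptors and SMAD1 and SMAD5 in the same way, while SMAD7 blocks the receptors and TGIF1 represses SMAD-bound genes. In myeloid cells TGF-beta is known for restraining inflammatory activation.

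After Con A the receptor gene Tgfbr1 and the genes of both TGF-beta SMADs, Smad2 and Smad3, fell. Smad3 was 3.54-fold lower, Tgfbr1 2.29-fold lower and Smad2 1.29-fold lower. Of the 10 members, 3 fell by limma at an adjusted p under 0.05 over all genes, where 7.22% of all genes fell. By the same fit 0 members rose (0 also at an unadjusted p under 0.05, and 0 by the unmoderated test), where 4.59% of all genes rose. The groups did not overlap in 4 members, all lower after Con A, where 29.9% of all genes did not overlap and 15.6% were lower. The members' median difference was -0.15 on the log2 scale, and that of all genes was 0.02. All 10 members lay above the median level of all genes, whereas 9968 of the 19938 genes lay below it. A fit of only the genes at or above that median called 2366, against 2355 in the fit of all genes. It thus called a larger share of its genes, and the same counts of members, 0 higher and 3 lower.

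**Figure D1:**
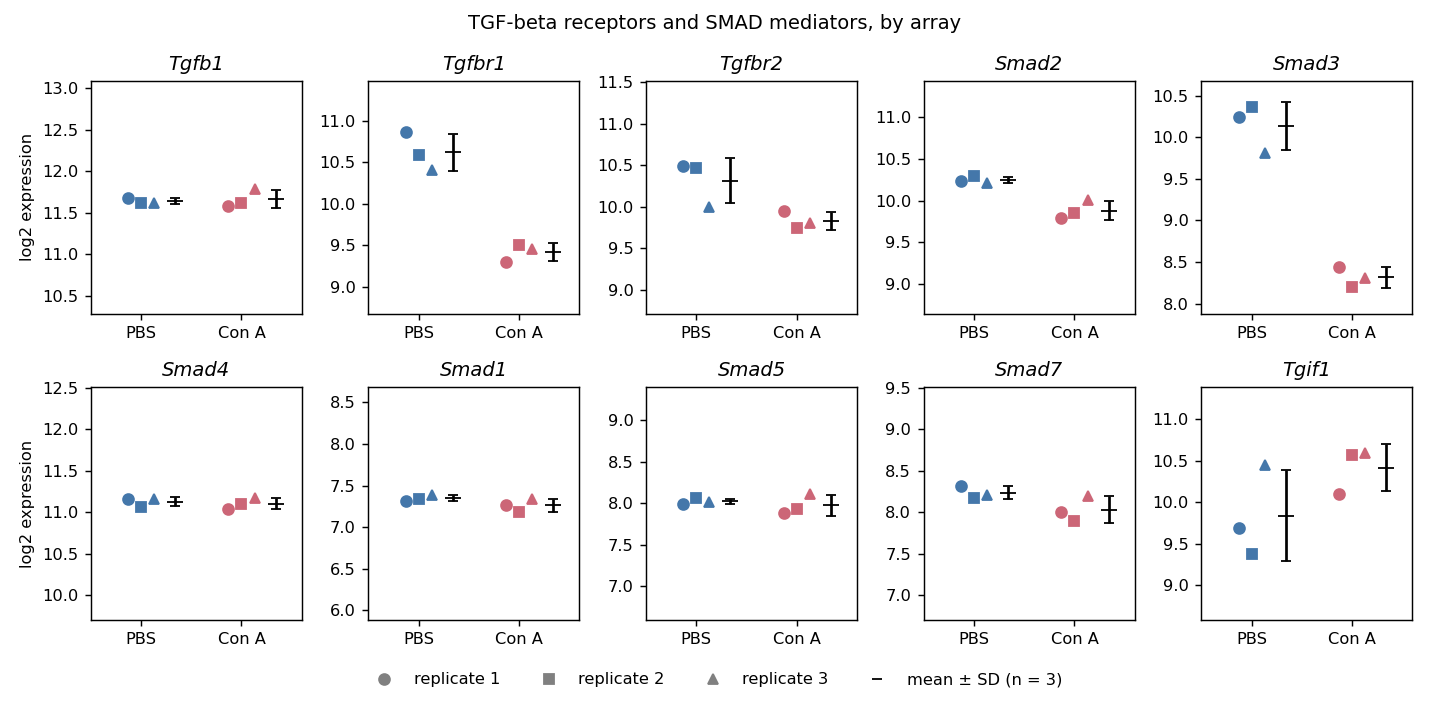
Log2 expression (vertical axis, each panel spanning the same range) of the 10 members on 3 PBS arrays (blue) and 3 Con A arrays (red), with marker shape for the replicate number and bars for mean ± SD. Smad3 and Tgfbr1 separate widely between the groups, and PBS replicate 3 lies among the Con A arrays for Tgif1.

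The sequences around the start sites of Smad3 and Tgfbr1, the members with the largest falls, are shown because these genes were low together on all 3 Con A arrays. They come from RefSeq (GRCm38.p6), run from 250 bases before the start to 50 after it, and carry the letters GGGCGG (the GC box, on either strand) in capitals. Smad3 lies at chr9:63757945-63758244 on the minus strand, and this is its 1 entry. Tgfbr1 lies at chr4:47352972-47353271 on the plus strand, the upstream of its 2 entries.
Smad3: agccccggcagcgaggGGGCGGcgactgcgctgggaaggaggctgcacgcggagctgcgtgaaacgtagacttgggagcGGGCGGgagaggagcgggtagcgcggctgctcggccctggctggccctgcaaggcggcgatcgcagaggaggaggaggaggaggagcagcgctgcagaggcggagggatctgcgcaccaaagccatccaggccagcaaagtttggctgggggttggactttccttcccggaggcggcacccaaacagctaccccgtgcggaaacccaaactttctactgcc
Tgfbr1: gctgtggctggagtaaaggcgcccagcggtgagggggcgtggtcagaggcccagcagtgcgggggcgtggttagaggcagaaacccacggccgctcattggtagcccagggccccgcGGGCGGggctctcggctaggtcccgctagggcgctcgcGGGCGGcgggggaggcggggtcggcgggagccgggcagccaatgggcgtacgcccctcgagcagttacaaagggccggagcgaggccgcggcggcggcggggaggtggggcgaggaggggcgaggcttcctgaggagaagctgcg
Each of these windows held 2 GC boxes, a motif found in 35.7% of all 32851 windows of this length and in 9 of 14 windows of 6 of the 7 members with entries, among them Tgfb1 with 6 matches. Their share of G and C was 67.7% and 74.7%, against a median of 52.7% over all windows. The SMAD box GTCTG (in 49.6% of all windows), the interferon-gamma element GAS written TTCNNNGAA (8.3%), the core of the interferon-stimulated response element (3.44%), the AP-1 site TGANTCA (7.81%) and the PU.1 core GAGGAA (28.3%), each on either strand, had no match in either window. The other Tgfbr1 entry, at chr4:47385966-47386265, held 0 GC boxes, 1 GTCTG and 1 GAGGAA, with 52% G and C. Entries matched 7 of the 10 members, with 14 windows in all. Smad5 held 3 of them and Tgif1 5, and Smad5 windows overlapped, so 1 match can count more than once. Among the 14 windows, GTCTG occurred in 6 windows of 4 genes, and the palindromic SMAD element GTCTAGAC, found in 0.213% of all windows, in 0. A match is a run of letters and not a site shown to be bound.

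The ligand gene Tgfb1 (probe set 10551185) encodes TGF-beta 1, the main TGF-beta of immune cells. It stood at 11.68, 11.62 and 11.61 on the PBS arrays and at 11.59, 11.62 and 11.79 on the Con A arrays. The groups overlapped, and the difference was 0.03 (95% interval -0.16 to 0.21, limma adjusted p = 0.882). A change in Tgfb1 beyond that interval was not seen in either direction, and its sign turned to -0.03 without Con A replicate 3.

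Tgfbr1 (probe set 10504817), the type I receptor gene whose product is the kinase that activates SMAD2 and SMAD3, stood at 10.86, 10.58 and 10.41 after PBS. After Con A it stood at 9.30, 9.50 and 9.46. Every Con A array lay below every PBS array, with a gap between the groups that exceeded the range within either of them. Tgfbr1 fell by 1.20 ± 0.12 (SE; 95% interval -1.49 to -0.91, limma adjusted p = 0.00158), from 10.62 ± 0.23 to 9.42 ± 0.11 (SD, n = 3). With 1 array left out at a time the difference ran from -1.30 to -1.08, and it passed the threshold in each of those fits.

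Tgfbr2 (probe set 10597518), the gene of the type II receptor that binds the ligand first, stood at 10.487, 10.464 and 9.999 after PBS and at 9.956, 9.742 and 9.803 after Con A. The groups were apart only by the narrow step between PBS replicate 3 and Con A replicate 1. The difference of -0.48 (95% interval -0.81 to -0.15) did not pass the test (limma adjusted p = 0.0723). Without PBS replicate 3 it was -0.64 with an adjusted p of 0.00445, and over all 14 alternatives the adjusted p ran from 0.00445 to 0.227. Within each array, the ratio of Tgfbr1 to Tgfbr2 was lower after Con A by 0.72 on the log2 scale, with SDs of 0.16 in the PBS group and 0.22 in the Con A group.

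Smad3 (probe set 10594404) encodes a SMAD that binds DNA directly. Its level was 10.24, 10.36 and 9.81 on the PBS arrays and 8.44, 8.20 and 8.31 on the Con A arrays. The groups were far apart, and PBS replicate 3 was the PBS array nearest to the Con A group. Smad3 fell by 1.82 ± 0.15 (SE; 95% interval -2.17 to -1.48, limma adjusted p = 0.000827), from 10.14 ± 0.29 to 8.32 ± 0.12 (SD, n = 3). Ordered from the lowest difference upward, it was number 10 of 19938 genes, and Tgfbr1 was number 97. With 1 array left out the difference of Smad3 ran from -1.99 to -1.71, and each of the 14 alternatives kept it past the threshold, with adjusted p up to 0.0351.

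Smad2 (probe set 10456764), whose product shares the receptor with SMAD3, stood at 10.231, 10.291 and 10.216 after PBS and at 9.785, 9.850 and 10.002 after Con A. The arrays of the groups did not overlap, and the fall was small. Smad2 fell by 0.37 ± 0.08 (SE; 95% interval -0.56 to -0.18, limma adjusted p = 0.0271). That call ended without PBS replicate 1 (-0.37, adjusted p = 0.0889), PBS replicate 2 (-0.34, 0.089), Con A replicate 1 (-0.32, 0.0908) or Con A replicate 2 (-0.35, 0.0941). The 95% intervals of Smad2 and Smad3 did not meet. Within arrays the ratio of Smad3 to Smad2, set to a PBS mean of 0 on the log2 scale, was 0.12, 0.18 and -0.30 after PBS and -1.23, -1.55 and -1.59 after Con A. Smad3 was therefore lower relative to Smad2 on each Con A array than on any PBS array.

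Smad4 (probe set 10459705) encodes the partner that both SMAD branches share. It stood at 11.16, 11.06 and 11.16 after PBS and at 11.04, 11.10 and 11.17 after Con A, so the groups overlapped. Its difference of -0.02 had a 95% interval of -0.20 to 0.15 (limma adjusted p = 0.882), and leaving out Con A replicate 1 gave 0.01. The ratio of Smad3 to Smad4 was lower after Con A by 1.80 on the log2 scale.

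**Figure D2:**
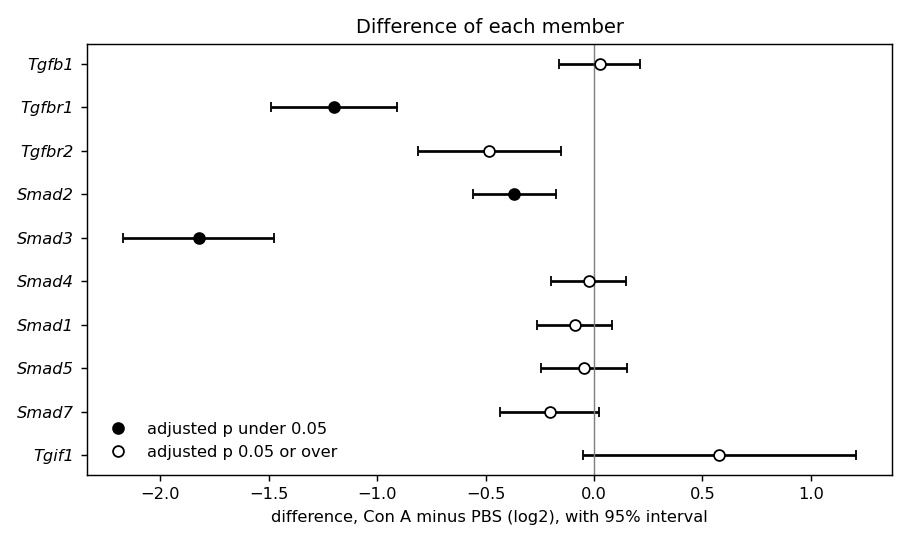
Difference between Con A and PBS (log2, horizontal axis) for each member with the 95% interval of the moderated fit; filled points have an adjusted p under 0.05. Tgfbr1, Smad2 and Smad3 are filled and lie below 0, and the interval of Smad3 does not meet that of Smad2.

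Neither of the BMP SMAD genes passed the test. Smad1 (probe set 10579860) stood at 7.32, 7.34 and 7.39 after PBS and at 7.27, 7.18 and 7.33 after Con A, and Smad5 (probe set 10405605) at 7.995, 8.058 and 8.012 against 7.878, 7.933 and 8.117. Both overlapped between the groups, with differences of -0.09 (95% interval -0.26 to 0.08, limma adjusted p = 0.529) and -0.05 (-0.24 to 0.15, 0.8). Smad1 lay close to the array medians of 7.05 to 7.08, and with no detection calls it is unknown whether these cells express it. The sign of the Smad5 difference turned without Con A replicate 1, to 0.003.

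Smad7 (probe set 10456745), the gene of the inhibitory SMAD and itself a known target of TGF-beta, stood at 8.32, 8.18 and 8.21 after PBS. After Con A it stood at 8.01, 7.89 and 8.20, and Con A replicate 3 lay within the PBS range. The difference of -0.20 (95% interval -0.43 to 0.02) did not pass the test (limma adjusted p = 0.257) and was -0.13 without Con A replicate 2.

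Tgif1 (probe set 10452633), the corepressor gene, stood at 9.69, 9.38 and 10.45 after PBS and at 10.09, 10.57 and 10.59 after Con A. PBS replicate 3 lay above Con A replicate 1, so the groups overlapped. The difference of 0.58 (95% interval -0.05 to 1.21) did not pass the test (limma adjusted p = 0.243). Without PBS replicate 3 it was 0.88 with an adjusted p of 0.0143, and without PBS replicate 2 it was 0.35 with an adjusted p of 0.515. Tgif1 had the widest spread of the members, with an SD of 0.55 in the PBS group, where the median SD over all genes was 0.11.

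**Figure D3:**
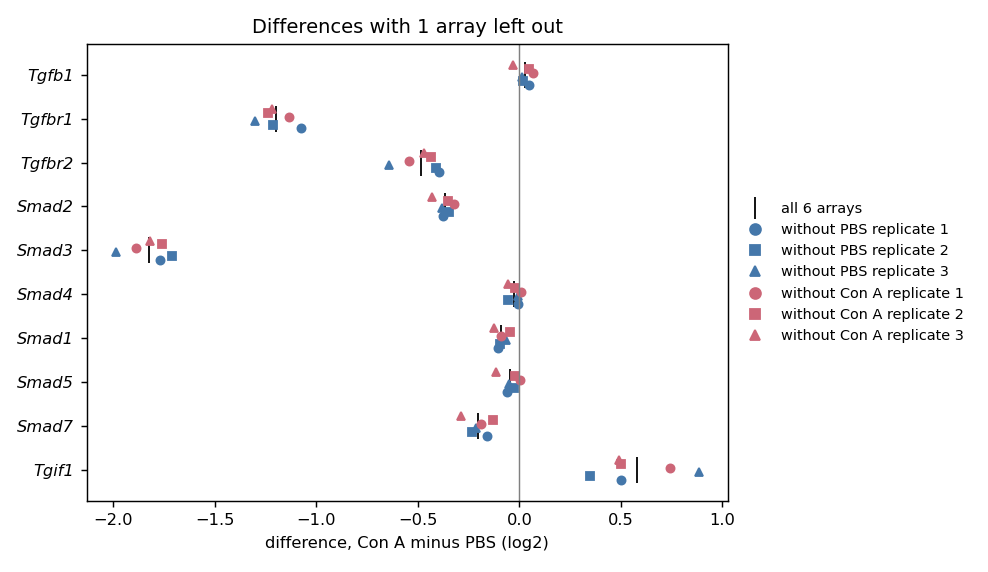
Difference between Con A and PBS (log2, horizontal axis) of each member with all 6 arrays (bar) and with each array left out (symbols, blue for PBS and red for Con A arrays). Tgif1 runs from 0.35 to 0.88 and Tgfbr2 from -0.64 to -0.40, and both are farthest from 0 without PBS replicate 3.

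PBS replicate 3 was the PBS array closest to the Con A mean in 5 of the 10 members, Tgfbr1, Tgfbr2, Smad2, Smad3 and Tgif1. Among the 2355 genes called over the whole table, the same array was closest in 56.9%. Of the members only Tgfbr1, Smad2 and Smad3 were called, and that array was closest in each. The 10 members and the called genes are unlike sets, so no comparison of these shares is drawn. On PBS replicate 3 the summed level of dendritic cell markers was 169% of the PBS mean, and on Con A replicate 3 it was 157%, against 52.9% to 70.9% on the other 4 arrays. Of these 8 markers 0 passed the test by limma (1 higher at an unadjusted p under 0.05, and 0 by the unmoderated test), and 4 lay below the median level of all genes. The sums were carried by Cd209a, at 11.1 and 11.5 on these arrays against 9.1 to 9.4 elsewhere, and Itgax, at 11.5 and 10.6 against 9.1 to 10.2. Batf3 and Zbtb46 were also highest on replicate 3 of each group, but Clec9a was lowest of the PBS arrays on PBS replicate 3. Whether the sums reflect dendritic cells was not tested, and neither was the part of such cells in the members' values.

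Genes that ran most like Smad3 and Tgif1, the members with the largest fall and the largest positive difference, were sought by root mean square distance over the 6 arrays after centring each gene on its mean. Nearest to Smad3 among 18357 genes were Idh1, an isocitrate dehydrogenase gene, at a distance of 0.10 on the log2 scale, the phosphatase gene Dusp7 at 0.11 and Klhl42 at 0.12. Idh1 stood at 12.10, 12.11 and 11.72 after PBS and at 10.38, 10.20 and 10.39 after Con A, a profile with the same low PBS replicate 3. The differences of Idh1, Dusp7 and Klhl42, at -1.66, -1.74 and -1.61, follow from their choice by likeness to Smad3 on the same arrays and are given with no test. Nearest to Tgif1 were Bcl2a1c at 0.06, Ddx60 at 0.08 and H2-Q5 at 0.08. Bcl2a1c, of a family of near-identical genes whose probes may share signal, stood at 10.41, 10.02 and 11.27 after PBS and at 10.88, 11.39 and 11.35 after Con A. H2-Q5 also belongs to a family of near-identical genes. The differences of Bcl2a1c, Ddx60 and H2-Q5, at 0.64, 0.58 and 0.49, likewise follow from the choice.

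The other genes of the pathway were taken from 8 lists with 99 genes apart from the members, of which 94 were measured. The others are not analysed here. Of the 94 genes, 7 rose and 9 fell (7.45% and 9.57%, against 4.59% and 7.22% of all genes), with a median difference of 0.06. The counts were 4 higher and 4 lower when PBS replicate 1 was left out, 4 and 5 when Con A replicate 3 was, and 5 and 5 when Con A replicate 2 was. The unmoderated test called 1 gene higher (Furin) and 2 lower (Mmp9 and Tgfbrap1). The largest differences lay in the adaptors that bring SMADs to the receptors and in genes that store or release latent TGF-beta.

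Among 12 other ligands of the superfamily 1 rose, Inhba, which encodes the subunit of activin A, a ligand that also acts through SMAD2 and SMAD3. Inhba stood at 10.09, 10.41 and 9.77 after PBS and at 11.72, 11.46 and 11.54 after Con A. The groups were well apart, and Inhba rose 2.80-fold (1.49 on the log2 scale, 95% interval 1.11 to 1.86, limma adjusted p = 0.0019). Tgfb2 and Tgfb3, the other TGF-beta genes, lay below the array medians at 6.29 and 5.84 after PBS and differed by -0.003 and 0.20.

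Of 13 genes for storing or activating latent TGF-beta, 3 rose and 1 fell. Thbs1, whose product thrombospondin-1 can release active TGF-beta, stood at 11.17, 10.96 and 11.85 after PBS and at 13.13, 13.06 and 13.06 after Con A. It rose 3.38-fold (limma adjusted p = 0.00247), and the 3 Con A arrays lay close together. They lay near the top of the scale, where RMA compresses differences, so both the closeness and the fold may be affected. Furin, a protease that cuts the TGF-beta precursor, rose by 0.79 ± 0.09 (SE), from 11.12 to 11.91 (limma adjusted p = 0.00243). Lrrc32 is the gene of a membrane anchor for latent TGF-beta known from regulatory T cells and platelets. It stood at 7.29, 7.16 and 7.25 after PBS and at 7.55, 7.79 and 8.24 on Con A replicates 1, 2 and 3. Lrrc32 rose by 0.63 with a limma adjusted p of 0.0495. That call ended without PBS replicate 1 (adjusted p = 0.131), PBS replicate 2 (0.125), PBS replicate 3 (0.069), Con A replicate 2 (0.128) or Con A replicate 3 (0.0603), and with arrays centred on their median (0.0549). The platelet markers, of which 1 of 7 measured rose and 0 fell, summed to 97.4% to 102% of the PBS mean on the PBS arrays and to 95.3%, 324% and 167% on Con A replicates 1, 2 and 3, and 2 of the 7 lay below the median level of all genes. Their part in the rise of Lrrc32 was not tested. Mmp9, a protease gene of granulocytes that also lay near the top of the scale, fell by 0.58. Nrros, the gene of the anchor that myeloid cells use, did not pass the test, with a difference of -0.28 (limma adjusted p = 0.125).

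Of 11 other receptors of the superfamily 2 fell, both of the type I class to which Tgfbr1 belongs. Bmpr1a, a BMP receptor gene, fell by 0.66, from 10.47 ± 0.23 to 9.81 ± 0.18 (SD, n = 3; limma adjusted p = 0.0237). Acvrl1, which encodes ALK1, fell by 0.42, from 10.56 ± 0.16 to 10.14 ± 0.08 (limma adjusted p = 0.0348). The call of Bmpr1a ended without PBS replicate 1 (adjusted p = 0.0897), PBS replicate 2 (0.0674), Con A replicate 2 (0.086) or Con A replicate 3 (0.0611). That of Acvrl1 ended without PBS replicate 1 (0.128), PBS replicate 2 (0.107), Con A replicate 1 (0.0617), Con A replicate 2 (0.124) or Con A replicate 3 (0.103). Acvr1b, the type I receptor gene for activin, stood at 10.22 after PBS and 10.48 after Con A and did not pass the test (limma adjusted p = 0.11).

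The adaptors had the widest range. Dab2, whose product links the TGF-beta receptors to SMADs and to endocytosis, stood at 7.15, 7.58 and 8.23 after PBS and at 9.60, 9.92 and 10.47 after Con A. It rose by 2.34 ± 0.30 (SE; limma adjusted p = 0.00358). A second row of Dab2 stood at 3.98 and 4.02, near the bottom of the scale, and differed by 0.05, so the mean of its rows gave 1.19. Zfyve9, which encodes SARA, the anchor that presents SMAD2 and SMAD3 to the receptor, stood at 7.75, 7.40 and 7.71 after PBS and at 5.77, 5.83 and 6.38 after Con A. It fell by 1.63 ± 0.18 (SE; limma adjusted p = 0.00185), to a level below the array medians, where differences are understated. Tgfbrap1, a receptor-associated protein gene, fell by 0.68, and Tab3, a partner gene of the kinase TAK1, rose by 0.32 (limma adjusted p = 0.0302). Tab3 missed the threshold without PBS replicate 1 (0.0976), PBS replicate 2 (0.0973), Con A replicate 1 (0.0995) or Con A replicate 3 (0.103). In all, 2 of these 9 genes rose and 2 fell.

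**Figure D4:**
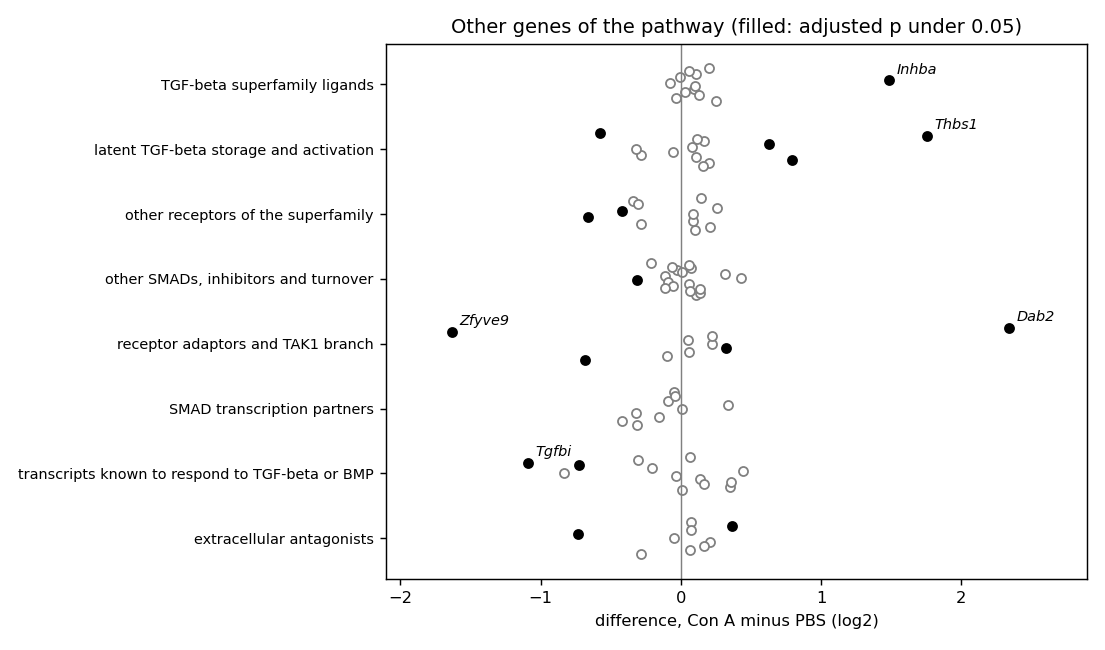
Difference between Con A and PBS (log2, horizontal axis) of the measured genes in 8 pathway lists, 1 point per gene with vertical scatter for legibility; filled points have an adjusted p under 0.05. Dab2, Thbs1 and Inhba lie farthest to the right and Zfyve9 and Tgfbi farthest to the left.

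Among 18 other SMADs, inhibitors and turnover factors 1 fell, Smurf2, a ubiquitin ligase gene that targets SMADs and receptors, by 0.32 (limma adjusted p = 0.0383). Its call ended without PBS replicate 1 (0.126), PBS replicate 2 (0.102), Con A replicate 1 (0.116), Con A replicate 2 (0.0965) or Con A replicate 3 (0.104). Skil, the gene of the corepressor SnoN, differed by 0.43 and Tgif2, a relative of Tgif1, by 0.32, and neither passed the test (limma adjusted p = 0.0525 and 0.0666), although in both every Con A array lay above every PBS array. Smad6 and Smad9, the remaining SMAD genes, lay below the array medians and differed by 0.07 and 0.06. The 9 SMAD transcription partners held 0 genes past the threshold by limma (1 higher and 2 lower at an unadjusted p under 0.05, and 0 by the unmoderated test). Their largest differences were those of Ncoa1 at -0.42 (limma adjusted p = 0.104, and 0.0106 without PBS replicate 3) and Runx1 at 0.33 (0.113; 0.22 on the log2 scale without Con A replicate 3).

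Of 13 transcripts known to respond to TGF-beta or BMP, 2 fell and 0 rose by limma (0 rose also at an unadjusted p under 0.05 and by the unmoderated test). Tgfbi, named for its induction by TGF-beta, stood at 12.87, 12.74 and 13.01 after PBS and at 11.39, 12.06 and 11.89 after Con A. The groups did not overlap, and Tgfbi fell 2.13-fold (limma adjusted p = 0.00722). Fn1, the fibronectin gene, fell by 0.72 (limma adjusted p = 0.0169, and 0.076 without PBS replicate 1). The BMP and TGF-beta targets Id1 and Id2 differed by -0.04 and 0.01, and Id3 by -0.83 without passing the test (limma adjusted p = 0.111). Klf10, an early TGF-beta target gene, differed by -0.30 (limma adjusted p = 0.0712). Others lay above 0 without passing the test, with Cdkn2b at 0.45, Bhlhe40 at 0.36, Junb at 0.35 and Snai1 at 0.14. Over the list 6 of 13 differences lay below 0, with a median of 0.01, close to that of all genes. Tgfbi and Fn1 are also abundant in monocytes.

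Of 9 extracellular antagonists 1 rose and 1 fell, both genes of proteins that bind activin. Fstl3 fell by 0.74, from 9.44 ± 0.29 to 8.70 ± 0.08 (SD, n = 3; limma adjusted p = 0.0159), and Fst, the follistatin gene, rose by 0.36, from 7.50 ± 0.10 to 7.86 ± 0.06 (limma adjusted p = 0.026). The Fstl3 call ended without PBS replicate 1 (0.0662), Con A replicate 2 (0.0725) or Con A replicate 3 (0.059). That of Fst ended without PBS replicate 1 (0.0965), PBS replicate 3 (0.052), Con A replicate 1 (0.0625), Con A replicate 2 (0.0932) or Con A replicate 3 (0.074).

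Marker genes describe what the sort held. The gate genes were bright on all arrays, with Itgam (CD11b) at 12.7 to 13.1 and Ly6g, a part of the Gr-1 epitope, at 13.5 to 13.7. Granulocytic markers summed to 95.5% to 104% of the PBS mean on the PBS arrays and to 99.1% to 101% on the Con A arrays, and 0 of 10 passed the test by limma (0 also at an unadjusted p under 0.05 and by the unmoderated test). Their mean log2 level was 13.3 to 13.5 on every array, close to the brightest values of the arrays. Differences can be compressed there, so a change in these markers could go unseen. By limma 7.22% of all genes fell and 4.59% rose. Of 9 measured monocytic markers, 4 fell and 1 rose, the last being Cd14 (2 lower and 0 higher by the unmoderated test). Their summed level ran from 81.9% to 112% after PBS and from 62.0% to 83.4% after Con A, with the falls of Smad3, Tgfbr1, Smad2, Tgfbi and Fn1 going the same way, and 0 of the 9 lay below the median level of all genes. These sums weight bright markers such as Cd14, and the mean log2 level of the 9 markers did not overlap, at 10.66 to 11.02 after PBS and 9.72 to 10.16 after Con A. The median difference was -0.78. At an unadjusted p under 0.05, a level not counted over all genes, 7 of the 9 were lower and 1 higher. The part of monocytic cells in these falls was not tested, and fewer cells of a type cannot be told apart from less RNA per cell. Of 10 markers of eosinophils, basophils and mast cells 5 rose and 0 fell by limma, where 4.59% of all genes rose. The unmoderated test called 1 of the 10 higher and 0 lower. These markers summed to 76.3% to 131% after PBS and 142% to 241% after Con A. Kupffer cell markers (0 of 10 past the threshold by limma, 0 at an unadjusted p under 0.05 and 0 by the unmoderated test) summed to 96.7% to 106% after PBS and to 75.8%, 158% and 105% on Con A replicates 1, 2 and 3. Hepatocyte markers (0 of 9 past the threshold by limma, 1 higher at an unadjusted p under 0.05 and 0 by the unmoderated test) summed to 92.8% to 107% after PBS and to 80.2%, 138% and 86.3% on the same arrays, so Con A replicate 2 was the highest array for Kupffer, hepatocyte and platelet markers. Endothelial and stellate markers, of which 8 of 11 lay below the median level of all genes, ran from 82.7% to 114% after PBS and from 73.5% to 91.7% after Con A. The 1 gene called among them was the bright Lyve1, which fell by 1.33 (limma adjusted p = 0.0111), while 4 of the 11 differences lay below 0 and their median was 0.12. T cell and EL4 markers, of which 7 of 8 lay below that median, ran from 95.5% to 105% after PBS and from 99.6% to 109% after Con A.

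**Figure D5:**
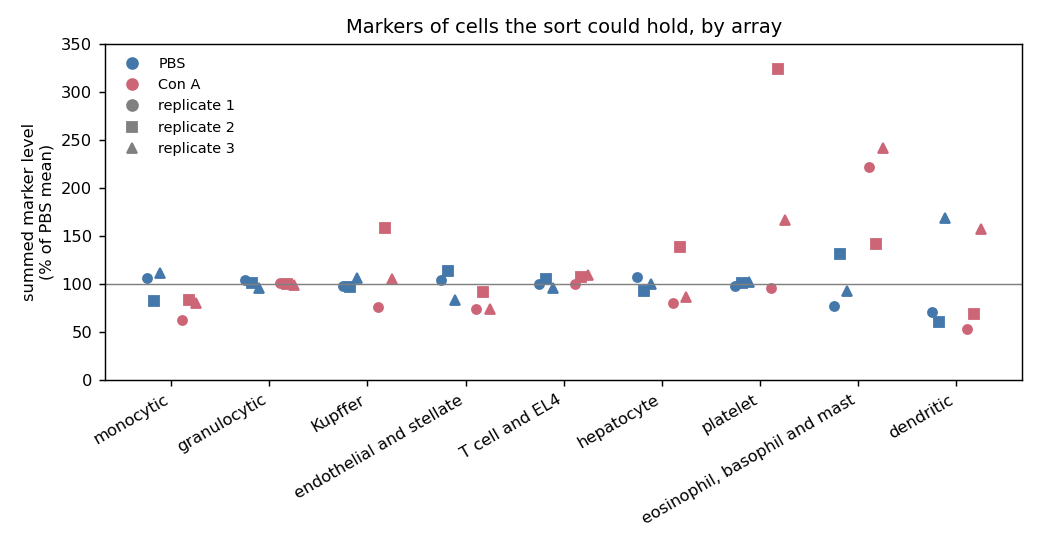
Summed linear level of the measured markers of each cell type as a percentage of the PBS mean (vertical axis), by array, with blue for PBS, red for Con A and marker shape for the replicate number. Granulocytic sums lie between 95.5% and 104% on all arrays, from probe sets near the top of the scale, monocytic sums lie lower after Con A with ranges that overlap (their mean log2 levels do not), and platelet markers are high on Con A replicates 2 and 3.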

How the data were processed

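The deposited values, 1 per probe set on each of 6 mouse Affymetrix gene arrays, are log2 expression; RMA and Partek are named without versions in the submitters' processing notes. Differences can be compressed near the bottom and top of the scale. Of 35556 rows, 21789 had 1 symbol in the platform annotation, giving 19938 genes (the brightest row stood for 999 genes with several). Symbols were compared with RefSeq names, with 0 changes, but 91 rows had a gene identifier not found there and kept the annotation's symbol unchecked. There were 0 identical pairs of arrays. No source used here gives the annotation's genome build. Levels lay between medians of 7.05 and 7.08 and maxima of 14.2 and 14.3. Precision is limited by having 6 arrays.

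The groups were compared with limma (version 3.58.1, under R 4.3.3) by lmFit and eBayes, two-sided. P-values were adjusted by Benjamini-Hochberg across the 19938 genes, with 0.05 as threshold. The fit was tested on simulated data in which 200 of 19938 genes were changed. It recovered 37.6% of changes of 0.5 on the log2 scale, 83.4% of those of 1 and 97.9% of those of 2. A difference near 0.5 that did not pass the test can therefore be a change that was missed. The members and lists were chosen with earlier results of these data known. Pathway genes were named by rule, up to 4 per list past the threshold, or the 2 largest differences where none passed, and the 3 genes nearest to each of 2 members; genes given besides were chosen after their values were seen. Marker levels were summed on the linear scale. Alternatives changed moderation, scaling, filter, row choice, weights, block and arrays. Python 3.11.15 and matplotlib 3.10.9 drew the plots.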

Additional observations from a re-analysis of the deposited data

How the results depend on the processing

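Of 140 member differences under 14 alternatives, 128 kept their direction and their side of the threshold, 5 lost it (all Smad2), 4 gained it (Tgfbr2 and Tgif1) and 3 changed sign. With 1 array left out Tgfb1 ran from -0.034 (without Con A replicate 3) to 0.0665, Smad4 from -0.057 to 0.007 and Smad5 from -0.116 to 0.00333; Smad4 and Smad5 were highest without Con A replicate 1. The unmoderated test called 671 genes against 2355, with 1 pathway gene higher and 2 lower, and Smad2 missed the threshold (adjusted p = 0.0808). With 1 array left out the count of genes was lowest without PBS replicate 1, at 1140, and highest without PBS replicate 3, at 2765. The count of members called higher ran from 0 to 1, of members called lower from 2 to 4, of pathway genes called higher from 4 to 8 and of those called lower from 4 to 11. The cause was not tested.

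The arrays share replicate numbers across groups, and the sources used here state no pairing. Deviations from the group means correlated at 0.228, -0.17 and 0.555 for numbers 1, 2 and 3, and at -0.543 to 0.538 between unlike numbers. With 3 arrays per group the deviations depend on one another, so these values cannot decide whether the numbers pair the samples. With the replicate number as a block 2539 genes were called, 4 members were lower and Tgfbr2 and Ncoa1 passed the test (adjusted p = 0.0425 and 0.0482) while Smurf2 and Tab3 did not (0.0693 and 0.0519). Array weights also called Tgfbr2 (0.0205) and Ncoa1 (0.0359). Quantile normalisation ended the calls of Acvrl1 (0.0502) and Smurf2 (0.0622), the mean of all rows that of Smurf2 (0.0874), centring (0.0506) and a trended robust spread (0.0516) that of Tab3. Centring arrays on their median moved the median difference of all genes from 0.02 to 0.007. The arrays carry no detection calls, which limits Smad1, Zfyve9 and other dim genes.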
